A study of Homo sapiens with 10 samples.

Results

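Messenger RNAs for the proteins of the cytosolic ribosome were followed gene by gene through nuclei of HEK293 cells, an adherent, transformed line derived from human embryonic kidney. Nuclear RNA was recovered as soluble extract (SNE, 3 samples) or from the pelleted chromatin (CPE, 3 samples), with no treatment named for either, and sequenced from a stranded total RNA kit. The labels number the samples of a group but do not say whether they came from separate cultures, so the authors' p-values may measure technical spread only. Chromatin pellets with the elongation inhibitor DRB (2 samples) and with mock treatment (2 samples) belong to the series and were not analysed here. The genes were chosen by symbol: 1 tested row of the authors' deposited gene table with a single symbol that begins with RPL or RPS and a number, or is RPLP0, RPLP1, RPLP2 or RPSA. This rule took 50 of the 192931 tested loci, 29 of the large and 21 of the small ribosomal subunit, and used no measured value beyond the authors' decision that a locus could be tested.

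The table holds 1 FPKM value (fragments scaled by transcript length and by the size of the library) per gene and fraction, computed by the authors over the samples of a group. No spread between replicates and no read depth could be derived from it. A gene was called where the q value of the authors' Cuffdiff test was at most 0.05. Ratios are given as log2 of CPE over SNE, so that negative values mean a higher FPKM in the soluble extract. FPKM is scaled between libraries by a rule that the sources used here do not give. Higher and lower therefore refer to relative levels and not to amounts of RNA. The median ratio was -1.35 over 10065 loci with 1 symbol and 1 FPKM or more in both fractions. Over all tested loci it was 3.18. With 1 value per fraction, release of an RNA from chromatin and export or decay of it after release cannot be told apart. In the authors' deposited table NEAT1, a paraspeckle RNA, had a log2 ratio of 3.44, MALAT1, a nuclear speckle RNA, one of 1.45, and GAPDH, a glycolysis enzyme, one of -2.34. ACTB was looked up as well and shares its row with AC006483.1. That merged row had 1343 FPKM in SNE and 802.8 FPKM in CPE, a log2 ratio of -0.74, and was not called. Of the kidney development genes looked up, EYA1 had 2.79 FPKM in SNE, while PAX2, LHX1 and PAX8 were below 1 FPKM in both fractions. Of 8 markers of blood, liver, fibroblasts and endothelium with a row (PECAM1 was not analysed here), COL1A1 was at 1.45 FPKM in SNE and the other 7 were below 1 FPKM in both fractions, with CD3E and PTPRC at 0 in SNE. ALB, listed at 0 in SNE and at 0.373 FPKM in CPE, was the only one of them called. PTPRC, CD3E, CD79A, APOA1 and CDH5 were not tested by the authors and could not be called.

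A cytosolic ribosome is built from ribosomal RNA and a full set of ribosomal proteins, and cells coordinate the output of these genes. Many of their mRNAs are TOP mRNAs: transcription starts at a cytosine that is followed by an unbroken run of pyrimidines, a feature through which growth signals control their translation. Many of the genes also carry small nucleolar RNAs (snoRNAs) in their introns, which are cut out of the spliced intron and guide chemical modification of ribosomal and spliceosomal RNA.

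Of the 80 human genes for canonical ribosomal proteins, counting FAU and GNB2L1 (RACK1), 45 were among the genes followed. A further 30 were tested inside loci whose row joins several symbols, 4 were not evaluable (RPL22 and RPS29 among them exceeded Cuffdiff's data limit, and RPL11 was not analysed here), and 1 had a tested row outside the rule. The remaining 5 of the 50 genes are the paralogs RPL36AL, RPL39L, RPL3L and RPS27L, and RPS10L. RPS10L was taken by its symbol alone and had no gene span or coding length in the annotation used. Whether RPS10L is a paralog or a pseudogene was not tested. It stays among the small subunit genes in all counts because of its symbol. RPL10L, a paralog of RPL10 with 0.0471 FPKM in SNE, was not tested by the authors and stayed out.

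The start sites are shown for genes that differ in level or ratio, since a pyrimidine run at the start is a feature of many ribosomal protein genes that the rule did not use. RPS26 and RPS27L are included as genes without it at the annotated start. Each line gives 45 bases before and 15 bases from the RefSeq start (GRCh38.p14), with the pyrimidine run at the start in capitals.
RPS19: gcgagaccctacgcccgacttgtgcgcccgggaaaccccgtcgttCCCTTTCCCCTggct
RPL37A: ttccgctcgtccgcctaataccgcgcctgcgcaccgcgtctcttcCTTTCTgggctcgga
RPL38: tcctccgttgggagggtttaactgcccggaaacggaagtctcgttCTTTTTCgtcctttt
RPS24: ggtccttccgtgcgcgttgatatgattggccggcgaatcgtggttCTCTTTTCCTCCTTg
RPL41: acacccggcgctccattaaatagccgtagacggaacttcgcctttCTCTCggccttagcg
RPS27: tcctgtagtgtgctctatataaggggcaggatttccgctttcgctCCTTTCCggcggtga
RPS26: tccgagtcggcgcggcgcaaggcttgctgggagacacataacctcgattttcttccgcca
RPS27L: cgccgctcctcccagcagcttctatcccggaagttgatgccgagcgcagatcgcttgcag

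These windows lie at chr19:41860210-41860269 (RPS19), chr2:216498799-216498858 (RPL37A), chr17:74203633-74203692 (RPL38), chr10:78033818-78033877 (RPS24), chr12:56116588-56116647 (RPL41), chr1:153990717-153990776 (RPS27), chr12:56041873-56041932 (RPS26), all on the plus strand, and chr15:63157463-63157522 (RPS27L, minus strand). The run measured 14 bases in RPS24, 11 in RPS19, 7 in RPL38 and RPS27, 6 in RPL37A and 5 in RPL41. The RPS19 window is 1 of 2 annotated starts of that gene, and the other had no such run. RPS26 and RPS27L, a paralog known as a p53 target, had none at the annotated start. A promoter window was found for 40 of the 50 genes, and 28 of these (70%) had at least 1 annotated start with a C followed by 3 or more pyrimidines. The share was 7.95% over 14896 protein-coding symbols and 8.7% over 69 mitochondrial ribosomal protein genes in the same table. Within 250 bases before to 50 after the start, on either strand, CCGGAAG was found in 30% of the 40 genes (16.7% of protein-coding symbols), GGGCGG in 57.5% (65.4%) and TATAAA in 5% (12.2%). Over the 69 mitochondrial ribosomal protein genes the shares for these motifs were 43.5%, 60.9% and 4.35%.

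Ribosomal protein mRNAs were higher in the soluble extract at most genes. Of the 50 genes, 43 were called higher in SNE, 1 (RPS27) was called higher in CPE and 6 were not called. Among all 16699 tested loci with 1 symbol, 39.1% were called higher in SNE and 1.71% higher in CPE, and over all 192931 tested loci these shares were 4.3% and 8.73%. With a q of at most 0.01 the same counts of 43 and 1 were reached, against 31.7% and 1.19% of loci with 1 symbol and 3.48% and 6.12% of all tested loci. With q at most 0.05 and an absolute log2 ratio of at least 1 the counts were again 43 and 1, against 37.1% and 1.46% of loci with 1 symbol and 4.03% and 8.56% of all tested loci. The 43 genes were called at the smallest q of the authors' deposited table (q = 0.000706) in 41 cases, with RPL31 at q = 0.00194 and RPS25 at q = 0.00806. The median log2 ratio over the 50 genes was -2.26 (quartiles -2.39 and -2.01), against -1.22 over tested loci with 1 symbol.

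**Figure D1:**
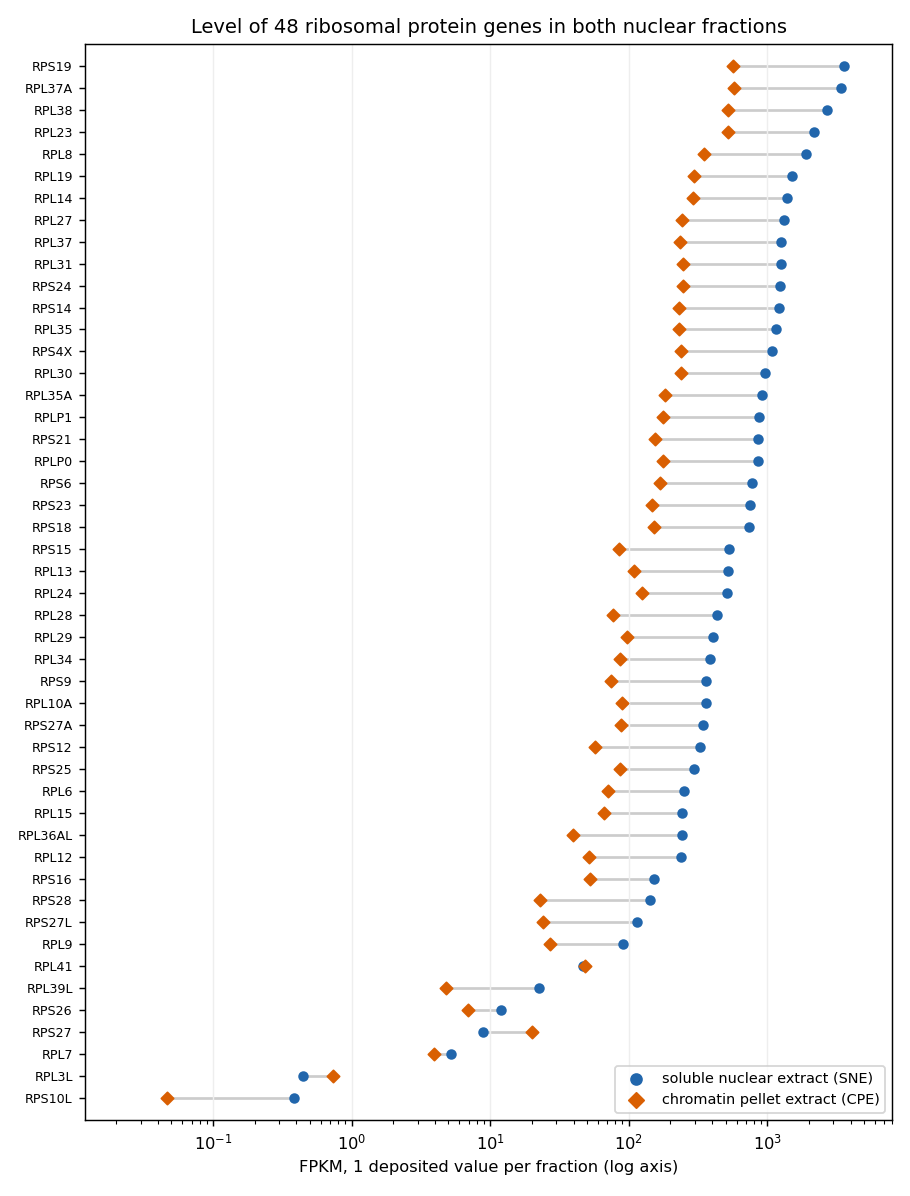
FPKM of 48 of the 50 ribosomal protein genes in the soluble extract (blue circles) and the chromatin pellet (orange diamonds) on a log axis, 1 deposited value per fraction, ordered by the soluble level. Most pairs are separated by a similar distance, while RPL41 has nearly equal values and RPS27 and RPL3L have the higher value in the pellet.

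RPS19, a small subunit protein needed for maturation of the small subunit's RNA and mutated in Diamond-Blackfan anaemia, was the most abundant and had the lowest ratio of any called gene. It had 3577 FPKM in SNE and 564.8 FPKM in CPE, a 6.33-fold difference. RPL37A, a zinc-binding protein of the large subunit, followed with 3388 FPKM in SNE and 575.9 FPKM in CPE (5.88-fold). Both had a TOP start, shown above. The median ratio was -2.27 over 28 genes with a TOP start at an annotated start and -2.22 over 12 without. These classes rest on the annotated position alone: RPS28 and RPS26, counted among the 12, have a pyrimidine run shortly after it. The medians therefore cannot say whether the ratio differs with a TOP run in the RNA.

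RPL38, known from mouse work for its part in translation of Hox mRNAs, had 2686 FPKM in SNE and 517.8 FPKM in CPE. RPL23, which can bind the p53 regulator MDM2, had 2189 FPKM in SNE and 523.3 FPKM in CPE. RPL8, which lies near the peptidyl transferase centre, had 1896 FPKM in SNE and 350.9 FPKM in CPE. These 5 genes held the first 5 places in both fractions.

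RPL19, a protein of an intersubunit bridge, had 1513 FPKM in SNE and 297.2 FPKM in CPE. RPL14 had 1397 FPKM in SNE and 290.9 FPKM in CPE, and RPL27 had 1318 FPKM in SNE and 242.0 FPKM in CPE. The order of the genes was close to the same in both fractions, with a Spearman's rho of 0.98 between the FPKM values over 47 genes at 1 FPKM or more in both. The values of 1 gene share its transcript model and mapping properties in both fractions, and genes are not independent replicates.

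The ratio varied little where the level was high. Of the genes, 41 had at least 100 FPKM in SNE, and all 41 were called higher in SNE, as were 85.9% of the 943 tested loci with 1 symbol at that level. This minimum was chosen after seeing the data and selects on the fraction in which the call is counted. Their soluble levels ranged from 115.1 FPKM (RPS27L) to 3577 FPKM (RPS19), a 31.1-fold range, while their ratios ranged from -2.66 to -1.54 on the log2 scale. The standard deviation of the log2 ratio between these genes was 0.25, a spread over genes and not over replicates, against 1.07 over those 943 loci. The 943 loci include ratios from -3.75 to 6.06, which widen that value. The distance between the quartiles was 0.27 for the 41 genes and 0.76 for the 943 loci. The median of the 41 genes was -2.30, a 4.93-fold excess in SNE. Of the 41, 39 lay within 0.5 of it, and RPS16 and RPS25 lay outside.

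**Figure D2:**
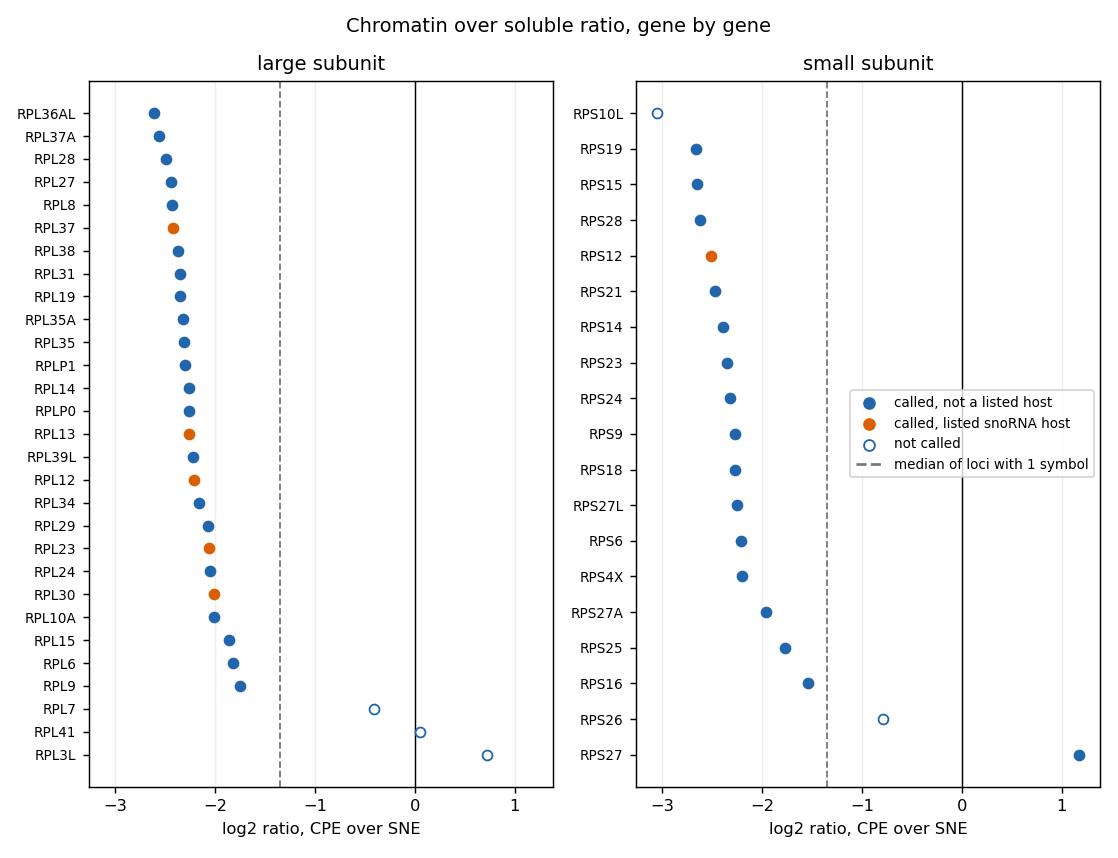
Log2 ratio of CPE over SNE for each large (left) and small (right) subunit gene, 48 in all; filled points were called, open points were not, orange marks listed snoRNA hosts and the dashed line is the median of tested loci with 1 symbol and 1 FPKM or more in both fractions (-1.35). The called genes other than RPS27 lie to the left of the dashed line in both panels.

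Among the most soluble genes, RPS15, a protein of the small subunit head, had 530.6 FPKM in SNE and 84.6 FPKM in CPE (6.27-fold). RPS28 had 141.9 FPKM in SNE and 23.1 FPKM in CPE (6.15-fold). RPL36AL, an autosomal copy of the X-linked RPL36A, had 240.4 FPKM in SNE and 39.5 FPKM in CPE (6.09-fold). These 3 genes were not among the most abundant, with ranks 24, 40 and 37 of 50 by SNE level, so a low ratio was found at high and at moderate levels. RPS12, RPL28 and RPS21 completed the 8 lowest ratios of called genes, at 5.72-fold, 5.60-fold and 5.53-fold.

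At the other end of the genes called higher in SNE stood RPS16, a small subunit protein whose tail reaches the transfer RNA in the ribosome, with 152.8 FPKM in SNE and 52.6 FPKM in CPE (2.90-fold). RPL9 had 91.4 FPKM in SNE and 27.1 FPKM in CPE (3.37-fold). RPS25, a protein used by some viral RNAs to start translation, had 294.3 FPKM in SNE and 86.2 FPKM in CPE (3.41-fold). RPL6, RPL15, RPS27A, RPL10A and RPL30 followed at 3.53-fold, 3.64-fold, 3.89-fold, 4.03-fold and 4.04-fold. Each of these 8 genes was still lower in CPE than the median of loci with 1 symbol at 1 FPKM or more in both fractions (-1.35 on the log2 scale). RPS27A encodes a fusion of ubiquitin with a small subunit protein.

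Large and small subunit genes had nearly the same median ratio. The medians were -2.26 over 29 large subunit genes (26 called higher in SNE, 3 without a call) and -2.27 over 21 small subunit genes (17 higher in SNE, 1 higher in CPE, 3 not called). The difference of 0.02 was a small part of the spread within either group, whose quartiles ran from -2.35 to -2.01 and from -2.47 to -1.96. It was not tested, because genes are not replicates of a condition. For comparison, 39.1% of all tested loci with 1 symbol were called higher in SNE and 1.71% higher in CPE. Of the stalk that recruits translation factors, RPLP0 and RPLP1 stood at -2.26 and -2.30 on the log2 scale of the authors' deposited table. RPL12, at the base of the stalk, had -2.21, while RPLP2 has only a merged row with SNORA52, at 2.22 in the authors' deposited table. RPS6, the target of S6 kinases, and RPS4X, whose gene lies on the X chromosome, had -2.21 and -2.20 in the same table. RPS23, which lines the decoding site, had -2.35, also in the authors' deposited table.

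Further large subunit genes called higher in SNE can be given by their ratios alone. RPL31 and RPL35, near the exit of the nascent chain, had ratios of -2.35 and -2.32, and RPL35A, a Diamond-Blackfan anaemia gene, had -2.32 in the authors' deposited table. RPL34, RPL29 and RPL24 had -2.16, -2.07 and -2.05 there. Of the small subunit genes, RPS14, RPS24, RPS9 and RPS18 had -2.39, -2.32, -2.27 and -2.27 in the authors' deposited table. RPS24 and RPS14 had 1239 FPKM and 1209 FPKM in SNE and 248.4 FPKM and 230.4 FPKM in CPE, which makes them the most abundant small subunit genes after RPS19.

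The exceptions had low FPKM values. Of the 9 genes below 100 FPKM in SNE, RPL9 and RPL39L were called higher in SNE, RPS27 was called higher in CPE and 6 were not called. RPS27, a zinc finger protein of the small subunit, had 8.91 FPKM in SNE and 20.1 FPKM in CPE, 2.26-fold higher in CPE (q = 0.000706 in the authors' deposited table). Its region on hg19 (chr1:153963235-153964626) holds no other tested locus. Its level in SNE was rank 46 of 50, against a median of 781.5 FPKM over the 41 genes at 100 FPKM or more.

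RPL41, which encodes the smallest ribosomal protein with a coding length of 75 bases, had 46.8 FPKM in SNE and 48.5 FPKM in CPE with no call (q = 0.694, from the authors' deposited table). RPS26, a Diamond-Blackfan anaemia gene, had 11.9 FPKM in SNE and 6.87 FPKM in CPE (q = 0.0517, just above the threshold, in the authors' deposited table). RPL7 had 5.20 FPKM in SNE and 3.93 FPKM in CPE (q = 0.586 in the same deposited table of the authors). The remaining uncalled genes were near the limit of detection. RPL3L, a striated muscle paralog of RPL3, had 0.446 FPKM in SNE and 0.735 FPKM in CPE. RPS10L had 0.383 FPKM in SNE and 0.0462 FPKM in CPE.

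**Figure D3:**
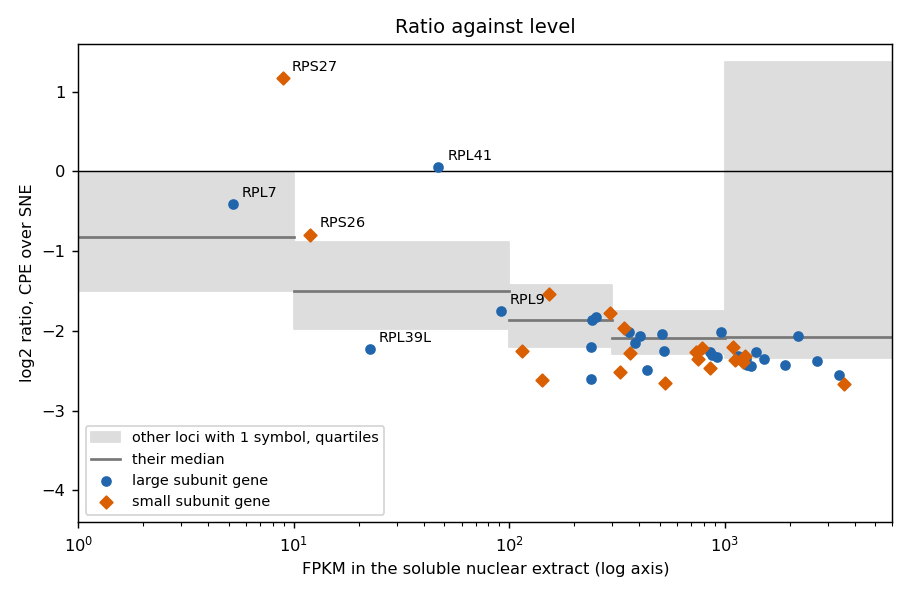
Log2 ratio of CPE over SNE against the soluble FPKM (log axis) for the genes with at least 1 FPKM in SNE, with the median and quartiles of other tested loci with 1 symbol in 5 ranges of level in grey. From 100 FPKM upward the genes form a band between -2.66 and -1.54, and RPS27, RPL41, RPL7 and RPS26 lie above it at lower levels.

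Across the 47 genes at 1 FPKM or more in both fractions, Spearman's rho between the log2 ratio and the SNE level was -0.57, and it was -0.39 over the 41 genes above 100 FPKM. The SNE level enters both quantities, so part of this relation is built in. Other genes showed the same trend with level: the median ratio of other loci with 1 symbol was -0.82 at 1 to 10 FPKM in SNE, -1.86 at 100 to 300 FPKM and -2.10 at 300 to 1000 FPKM. The ribosomal protein genes had medians of -2.04 (8 genes) and -2.27 (18 genes) in the latter ranges. At 1000 FPKM and more the median was -2.37 over 15 ribosomal protein genes and -2.08 over 42 other loci, whose upper quartile was 1.38. Over the 47 genes, rho with the ratio was 0.19 for coding length and -0.10 for gene span, and over the 41 genes it was 0.38 and 0.05.

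Ribosomal protein genes have many processed pseudogenes, to which their reads can also map, so the values of single genes are uncertain. The table lists 348 rows with a pseudogene symbol derived from the 50 genes, from 0 to 27 per gene, and 82 of them were tested. Spearman's rho between the number of tested pseudogene rows and the ratio was 0.26 over 47 genes. For RPS27 the 3 tested pseudogenes summed to 8.21 FPKM in SNE and 0.758 FPKM in CPE, and for RPL7 the 5 tested ones summed to 4.37 FPKM and 1.80 FPKM. RPS26 had 1 tested pseudogene at 0.316 FPKM in SNE, and RPL41 had 1 at 26.6 FPKM in SNE and 3.41 FPKM in CPE. For the abundant genes the sums could be large: the 3 tested pseudogenes of RPS23 reached 878.4 FPKM in SNE against 754.6 FPKM for RPS23 itself. The part of such mapping in the exceptions was not tested.

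Paralogs and their base genes differed in level and, in part, in ratio. RPS27L had 115.1 FPKM in SNE and 24.2 FPKM in CPE and was called higher in SNE, whereas RPS27 had the opposite direction. The level of RPS27 in SNE was 0.0774 times that of RPS27L. RPL36AL was 6.09-fold higher in SNE, and the merged locus of RPL36A, HNRNPH2 and their readthrough was 2.10-fold higher. RPL39L, which is best known from testis, had 22.5 FPKM in SNE and 4.81 FPKM in CPE. The merged locus of RPL39 and SNORA69 had 909.6 FPKM in SNE and 273.9 FPKM in CPE, a level 40.5 times that of RPL39L in SNE.

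Genes that host snoRNAs had a median ratio close to that of the others where the host had a row of its own. Of the 50 genes, 6 are listed hosts: RPL12, RPL13, RPL23, RPL30, RPL37 and RPS12. All 6 were called higher in SNE, with ratios from -2.52 (RPS12) to -2.01 (RPL30). Each had at least 100 FPKM in SNE, a level at which 85.9% of tested loci with 1 symbol were called higher in SNE. The median of the 6 hosts was -2.23 against -2.27 for the 44 other genes, a difference of 0.04 that was not tested. RPL12 had 238.7 FPKM in SNE and 51.7 FPKM in CPE. RPL37 had 1262 FPKM in SNE and 235.4 FPKM in CPE. RPS12 had 326.3 FPKM in SNE and 57.1 FPKM in CPE.

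The snoRNAs inside these introns stood mostly on the other side. They had rows of their own at 4 of the 6 hosts, with 6 snoRNAs in all, which the authors' analysis marked as low data and did not test. SNORA65, in RPL12, had 33.4 FPKM in SNE and 633.0 FPKM in CPE. SNORD72, in RPL37, had 11.9 FPKM in SNE and 218.8 FPKM in CPE, and SNORA72, in RPL30, had 55.7 FPKM in SNE and 880.0 FPKM in CPE. Within RPS12 the 3 snoRNAs differed. SNORA33 had 22.0 FPKM in SNE and 193.4 FPKM in CPE, and SNORD100 had 547.6 FPKM in SNE and 2695 FPKM in CPE. SNORD101 had 406.4 FPKM in SNE and 297.8 FPKM in CPE and was the 1 of 6 with the higher value in SNE. FPKM of RNAs this short depends strongly on the assumed length, and no source used here says how the libraries retained them.

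The sequences of these intronic RNAs show the 2 classes (GENCODE 29, GRCh38, capitals marking the C box TGATGA and the D box CTGA of C/D box snoRNAs, which guide methylation, and the ACA box of H/ACA snoRNAs, which guide pseudouridylation).
SNORD100: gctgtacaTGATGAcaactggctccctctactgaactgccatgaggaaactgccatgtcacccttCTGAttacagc
SNORD101: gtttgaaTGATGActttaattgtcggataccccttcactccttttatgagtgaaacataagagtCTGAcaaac
SNORA33: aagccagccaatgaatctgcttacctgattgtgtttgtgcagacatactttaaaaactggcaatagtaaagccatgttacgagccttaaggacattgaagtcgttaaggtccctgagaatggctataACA
SNORA65: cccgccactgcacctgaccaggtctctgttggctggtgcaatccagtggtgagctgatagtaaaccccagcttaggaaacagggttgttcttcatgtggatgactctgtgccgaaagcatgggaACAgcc

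They lie at chr6:132816802-132816877 (SNORD100), chr6:132815307-132815379 (SNORD101) and chr6:132817219-132817348 (SNORA33), all inside RPS12 on the plus strand, and at chr9:127448501-127448630 (SNORA65, inside RPL12, minus strand). SNORD100 and SNORD101 are 76 and 73 nucleotides long, and the H/ACA RNAs are both 130 nucleotides long. In RPS12, the C/D box RNA SNORD100 and the H/ACA RNA SNORA33 were both higher in CPE, so the class did not separate the 3 snoRNAs of this gene by fraction.

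Where host and snoRNA share 1 row, calls in both directions were found. Of 22 tested merged loci with a ribosomal protein symbol and a snoRNA symbol, 6 were called higher in CPE (27.3%), 2 higher in SNE (9.09%) and 14 were not called. Their median log2 ratio was 0.19. Over all tested loci 8.73% were called higher in CPE and 4.3% higher in SNE. Over tested loci with 1 symbol these shares were 1.71% and 39.1%. Of 7 tested merged loci without a snoRNA symbol, 6 were called higher in SNE and 1 was not, with a median of -2.21, like that of the genes with a row of their own.

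Among the merged loci called higher in CPE, the locus of RPL21, SNORA27 and SNORD102 was 10.2-fold higher in CPE, that of RPS2, SNORA10, SNORA64 and AC005363.9 was 8.86-fold higher, and that of RPL32 and SNORA7A was 8.81-fold higher. The loci of RPSA and RPLP2 with their H/ACA snoRNAs were 6.55-fold and 4.67-fold higher in CPE. RPL39 with SNORA69, 1 of the 2 called the other way, was 3.32-fold higher in SNE. In a merged row the reads of the host mRNA and of the snoRNA cannot be separated, so these values say nothing about the mRNA alone.

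**Figure D4:**
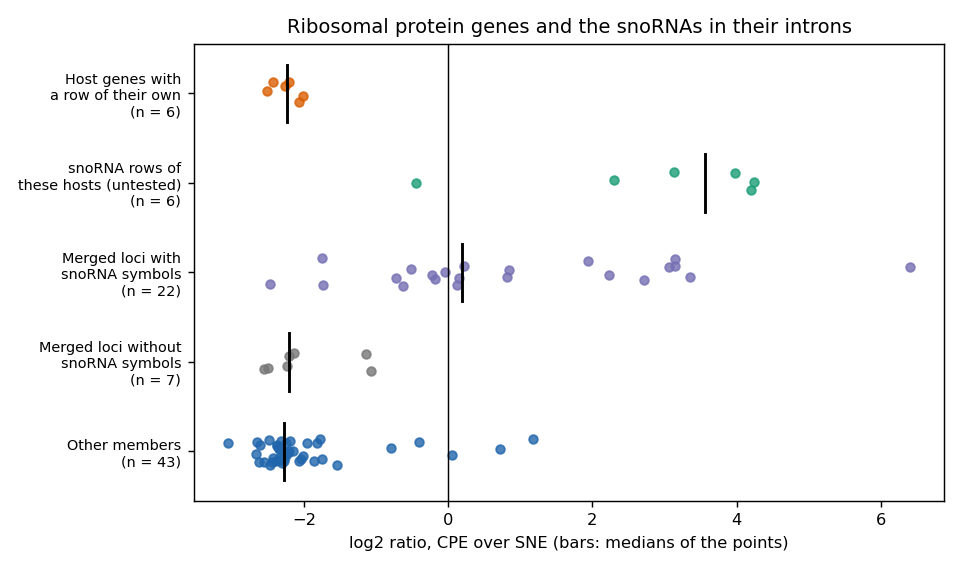
Log2 ratio of CPE over SNE for the 6 host genes with a row of their own, the 6 snoRNA rows beside them (not tested by the authors), tested merged loci with and without snoRNA symbols, and 43 other genes with a finite ratio; vertical bars are medians. Host genes and other genes overlap around -2.2, and 5 of the 6 snoRNA rows lie above 0.

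Unnamed loci in the same regions mostly had more signal in CPE, as did tested loci of the whole table. Of the 50 genes, 46 share their region of the table with tested loci that carry no symbol, 469 in all. None of the 469 was called higher in SNE and 23 (4.9%) were called higher in CPE, against 4.3% and 8.73% of all tested loci. Their median log2 ratio was 2.89, against 3.18 over all tested loci. All tested loci include those with symbols, and unnamed loci of other regions were not taken separately. Whether these regions differ from others was therefore not tested. At 1 FPKM or more in both fractions, 57 of the 469 loci had a median log2 ratio of 1.69. The regions often hold other genes as well, so such a locus need not belong to the ribosomal protein gene.

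Among gene sets of related function, mitochondrial ribosomal protein genes were close to the cytosolic ones. Of 60 tested, 55 (91.7%) were called higher in SNE and 5 had no call, with a median of -2.06 (quartiles -2.27 and -1.79). Of all tested loci with 1 symbol, 39.1% were called higher in SNE. Other TOP mRNAs, most of which encode translation factors, were all called higher in SNE (15 of 15 tested) with a median of -1.76. NPM1, a nucleolar chaperone, had 1337 FPKM in SNE and 401.0 FPKM in CPE (3.33-fold). EIF3L, an initiation factor subunit, had 584.6 FPKM in SNE and 154 FPKM in CPE (3.79-fold).

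The merged locus of FAU and SYVN1 had 663.6 FPKM in SNE and 126.9 FPKM in CPE (5.23-fold). GNB2L1, merged with SNORD95 and SNORD96A, had 5060 FPKM in SNE and 6944 FPKM in CPE and was not called. Tested loci with 1 symbol and at least 100 FPKM in SNE, which include the ribosomal genes at that level, had a median of -1.95. Of these loci, 85.9% were called higher in SNE. The differences between these sets were not tested. Ribosomal protein pseudogenes at 1 FPKM or more in both fractions had a median of -2.38 over 50 loci, with 40 (80%) called higher in SNE. Of tested loci with 1 symbol and the same FPKM minimum, 53.1% were called higher in SNE.

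**Figure D5:**
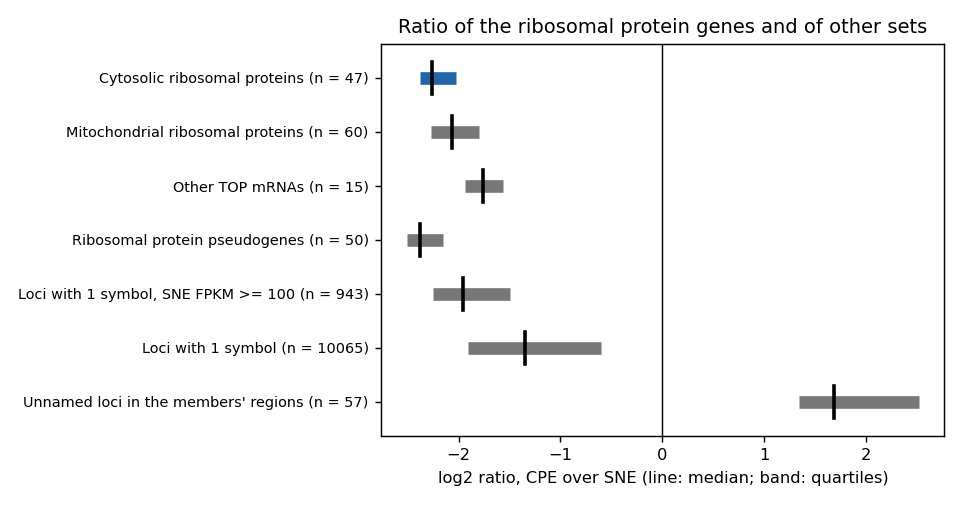
Median (line) and quartiles (band) of the log2 ratio of CPE over SNE for the ribosomal protein genes at 1 FPKM or more in both fractions and for 6 other sets of tested loci, with the number of loci in each. The cytosolic and mitochondrial ribosomal protein genes have medians of -2.26 and -2.06, and the unnamed loci of the same regions have a median of 1.69.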

How the data were processed

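Stranded total RNA of 3 SNE and 3 CPE samples of HEK293 nuclei was compared. Reads were processed with TopHat2 and Cuffdiff on hg19, per the submitters' processing notes; their versions, annotation and scaling are not given in the sources used here. In addition to identifiers, the authors' deposited gene table (241080 rows) holds 1 FPKM value per fraction, the authors' log2 ratio (CPE relative to SNE), their p-value and q-value, and a test statistic, a score that was deposited but not used. A call is a q of at most 0.05 in a tested row. No test was added, because the table has no per-sample values, so depth and precision per sample are unknown. A second deposited table, of isoforms, was not used: of 14208 pairs of values found once in both tables, 12307 stood under another gene identifier. Its columns therefore gave no result.

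Counts, medians and Spearman's rho were computed in Python 3.11.15 with pandas 2.3.3 and scipy 1.17.1, and the counting was tested on simulated data. Gene spans, coding lengths (49 of 50 genes matched by symbol), snoRNAs and their sequences came from GENCODE 29, start windows from RefSeq (GRCh38.p14, 40 of 50 genes). Region coordinates from the deposited table are on hg19, counted from 1, and cover a bundle of loci rather than a gene. The genes and lists were chosen with earlier results of these data known. Full values are given for called exceptions, uncalled genes, the 8 lowest and 8 highest ratios among genes called higher in SNE, the 8 highest mean FPKM values and the paralogs. Some genes are not reported here by name and were left out of the plots that label genes, but stay in all counts and medians. The split at 100 FPKM was chosen after seeing the data. Alternatives were stricter calls, an FPKM minimum, pseudocounts of 1 and 0.1, centring, other member and host lists.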

Additional observations from a re-analysis of the deposited data

How the results depend on the processing

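The call of 43 genes higher in SNE and 1 higher in CPE was the same with q of at most 0.01 (background 31.7% and 1.19% of loci with 1 symbol). It was also the same with an absolute log2 ratio of at least 1 (37.1% and 1.46%) and with 1 FPKM in both fractions (53.1% and 1.1%). Over canonical genes 40 and 1 were called, against 39.1% and 1.71% of tested loci with 1 symbol. Adding merged loci gave 51 and 7 calls, where 4.3% and 8.73% of all tested loci were called. The median log2 ratio was then -2.07, and the differences of medians were 0.16 (large minus small subunit) and 2.15 (snoRNA hosts minus others). Of the 29 added rows, 22 join host and snoRNA symbols. Over genes with at least 100 FPKM in SNE, 0 were higher in CPE, the median was -2.30 and the differences were 0.035 and 0.084; RPS27 lies below that level. This minimum was chosen after seeing the data. The median was -2.25 with a pseudocount of 1 and -0.91 after the median of loci with 1 symbol, -1.35, was subtracted. Centring brought RPS26 to 0.56 and RPL7 to 0.94, and none of the 41 abundant genes above 0. Taking hosts from RefSeq, which adds RPL28, gave a difference of 0.0078. No paired analysis was possible because the table gives 1 value per fraction and no sample columns, and for the same reason no replicate could be left out. The read depth behind the values is unknown.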
